A study of Mus musculus with 32 samples.

Results

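Sox, Fox, Pax, Hox, Lhx, Nkx, Tbx, Gata, Pou and Irx, with the sine oculis homeobox genes such as Six4, are 11 gene families of DNA-binding proteins that specify cell fates in the embryo. They are described here in mouse embryonic stem cells with and without linker histone H1. The members were the transcripts of the authors' deposited table of changed chromatin-enriched RNA (cheRNA) that carry the name of a gene of these families, in any transcript class. They were chosen by name and not by value. The rule gave 53 transcripts of 35 genes, out of 5723 listed transcripts in all. Another 18 transcripts of 3 genes with such names were not analysed here.

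The groups were wild-type (WT) cells and H1-TKO cells, which are labelled as a triple knockout of histone H1. Both were grown with serum and LIF, the cytokine that keeps mouse embryonic stem cells undifferentiated. cheRNA is the RNA that stays with the chromatin pellet when nuclei are extracted with urea and detergent, and it came from 3 samples per genotype. MapR, which maps R-loops (RNA paired with 1 DNA strand while the other is displaced), had 2 libraries per genotype. These were made with micrococcal nuclease fused to the RNase H domain that binds such hybrids (RNH), and each genotype had 1 control library with the nuclease alone. The labels do not say whether H1-TKO is 1 clone or whether replicates were separate cultures. Other assays of the 32 samples were not analysed here.

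As background, these factors are mostly silent or low in stem cells. Their promoters tend to be rich in CpG and to be held by Polycomb complexes, which keep developmental genes repressed until a lineage is chosen. Each family shares a DNA-binding fold, such as the HMG box of Sox, the forkhead domain of Fox, the T-box of Tbx, or the homeodomain of Hox, Lhx, Nkx, Irx and the sine oculis genes. Pax proteins bind through a paired domain, Gata proteins through zinc fingers, and Pou proteins through a POU domain joined to a homeodomain.

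The authors' deposited table gives a log2 fold change for each transcript, without p-values or values of single samples. Every listed absolute log2 is at least 1.00, so an unlisted gene has no value here. The direction is not stated in it. It was read as H1-TKO over WT because Hist1h1c, Hist1h1d and Hist1h1e, which such triple knockouts are known to lack, then stand at -3.61, -5.02 and -4.83 in the authors' deposited table. "Higher" and "lower" below mean higher or lower in H1-TKO under that reading, by the authors' call. With no value per sample, no error and no test can be given for a fold change. In such bulk RNA, fewer cells of a type and less RNA per cell cannot be told apart.

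The sequences on which the results turn come first, from RefSeq GRCm38.p6, the assembly of mm10. They are printed in the direction of transcription. The first 2 surround the starts of the most strongly higher members, intergenic RNAs upstream of Foxd3, a forkhead factor of the epiblast and the neural crest. They cover chr4:99569315-99569614 and chr4:99593836-99594135 on the plus strand. Capitals mark the first 50 bases of each deposited transcript.
Foxd3 upstream RNA, log2 8.17: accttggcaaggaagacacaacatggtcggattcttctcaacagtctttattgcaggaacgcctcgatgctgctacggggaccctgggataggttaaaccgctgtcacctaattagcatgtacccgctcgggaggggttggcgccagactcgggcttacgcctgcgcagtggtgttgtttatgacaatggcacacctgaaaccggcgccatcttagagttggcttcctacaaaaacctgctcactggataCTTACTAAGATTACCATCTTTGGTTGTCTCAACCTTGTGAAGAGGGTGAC
Foxd3 upstream RNA, log2 7.22: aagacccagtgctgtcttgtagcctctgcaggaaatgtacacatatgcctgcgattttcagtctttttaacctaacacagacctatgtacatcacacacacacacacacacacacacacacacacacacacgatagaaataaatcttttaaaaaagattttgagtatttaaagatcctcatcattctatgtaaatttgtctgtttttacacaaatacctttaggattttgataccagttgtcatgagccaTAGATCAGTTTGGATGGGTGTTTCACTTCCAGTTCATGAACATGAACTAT
The first of these windows is 51.3% G and C with 13 CpG, and the second is 36.7% with 2 CpG. RefSeq marks 174 and 85 of their 300 bases as repeats.

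The next 3 are the parts of RefSeq promoter windows (250 bases before to 50 after a start) that lie 5′ of the annotated untranslated region. The 5 genes considered had promoter peaks in both libraries of a genotype and, ranked by their weakest such peak, stood first; Foxn3 and Foxp4 are not printed, since fewer than 2 libraries met their windows. The Foxp1 part lies at chr6:99028314-99028548, the Six4 part at chr12:73113457-73113675 and the Foxn4 part at chr5:114273808-114274011, all on the minus strand. Capitals mark runs of 4 or more G, the motif GGGG searched on the printed strand.
Foxp1 promoter: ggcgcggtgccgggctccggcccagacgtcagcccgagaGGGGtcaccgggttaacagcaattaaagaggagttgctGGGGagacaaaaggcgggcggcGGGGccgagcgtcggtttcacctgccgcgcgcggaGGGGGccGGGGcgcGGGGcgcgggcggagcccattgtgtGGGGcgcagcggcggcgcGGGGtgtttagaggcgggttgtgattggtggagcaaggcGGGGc
Six4 promoter: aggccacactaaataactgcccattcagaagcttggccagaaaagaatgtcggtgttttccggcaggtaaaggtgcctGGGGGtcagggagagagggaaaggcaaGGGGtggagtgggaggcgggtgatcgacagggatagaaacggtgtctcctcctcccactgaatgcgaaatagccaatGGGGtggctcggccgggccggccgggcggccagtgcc
Foxn4 promoter: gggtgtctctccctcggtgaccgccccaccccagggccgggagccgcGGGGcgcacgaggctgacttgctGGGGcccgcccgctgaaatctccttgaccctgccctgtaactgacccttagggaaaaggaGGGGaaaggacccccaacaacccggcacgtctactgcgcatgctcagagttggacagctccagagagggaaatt
They hold 9, 3 and 3 such runs. Peaks of at least 2 libraries cover 158 of the 235 Foxp1 bases, all 219 of Six4 and all 204 of Foxn4. The Foxp1 window was met by replicate 1 of each genotype and by neither replicate 2, so not by both libraries of a genotype. The Six4 window was met by both H1-TKO libraries, and the Foxn4 window by H1-TKO replicate 1 and both WT libraries. Over whole windows of 300 bases, GGGG was present in 81.6% of 38 member promoters and in 69.0% of all 32851 promoters on the strand of the gene, and in 97.4% and 86.4% on either strand. A match is a description of the letters only.

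The last 2 are the centres of the peaks nearest to the members with the largest values in each direction. The peak nearest to the Foxd3 upstream RNAs was called in WT replicate 2 alone and the one nearest to Nkx6-3 in WT replicate 1 alone. They are printed on the plus strand, at chr4:99626615-99626914 and chr8:23162748-23163047. Capitals mark the bases within 25 of the summit.
Foxd3 nearest peak: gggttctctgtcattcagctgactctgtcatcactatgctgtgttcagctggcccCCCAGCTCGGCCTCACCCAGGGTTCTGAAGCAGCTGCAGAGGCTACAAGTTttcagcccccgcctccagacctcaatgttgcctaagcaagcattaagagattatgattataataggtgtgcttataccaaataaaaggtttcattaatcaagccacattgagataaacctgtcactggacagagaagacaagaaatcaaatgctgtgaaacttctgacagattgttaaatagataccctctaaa
Nkx6-3 nearest peak: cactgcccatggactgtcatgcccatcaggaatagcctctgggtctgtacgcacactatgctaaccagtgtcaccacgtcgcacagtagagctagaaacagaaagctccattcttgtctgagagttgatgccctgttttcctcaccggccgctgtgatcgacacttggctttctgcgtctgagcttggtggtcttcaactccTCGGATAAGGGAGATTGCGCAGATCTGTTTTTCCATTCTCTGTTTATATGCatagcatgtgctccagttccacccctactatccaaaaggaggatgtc
The Foxd3 peak lies 36.6 kb from the RNA with log2 8.17, and no RNH peak of any library met that RNA or the one with log2 7.22. It does lie inside a longer Foxd3 member on the opposite strand, of log2 1.69, which spans both of them. The Nkx6-3 peak lies inside the listed transcript but beyond the annotated end of the gene.

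Transcripts of these families were split almost evenly by direction. Of the 53 members, 27 were higher and 26 lower in the authors' deposited table, which is 50.9% higher, and 60.1% of all 5723 listed transcripts were higher. The exact 95% Clopper-Pearson interval of the members' share, which treats transcripts as independent, runs from 36.8% to 64.9% and holds the value of the whole table. Transcripts that follow the gene itself (gene class, 21 members) were higher in 8 cases and lower in 13, or 38.1% higher, beside 45.0% of all listed gene transcripts. Intergenic transcripts (29 members) were higher in 18 cases and lower in 11, or 62.1%, beside 74.0% of all listed intergenic transcripts. Both intervals, 18.1% to 61.6% and 42.3% to 79.3%, hold the value of their class. They are a description and no test, since several members share a locus and all members are part of the whole table. The remaining 3 members were 1 antisense RNA within Foxn1, which was higher, and 2 bidirectional RNAs at Foxp4 and Pou3f1, which were both lower. Higher transcripts made up 86.6% of all 373 listed antisense RNAs and 85.4% of all 185 listed bidirectional RNAs. The Foxn1 RNA thus had the more common direction of its class, and both bidirectional members had the less common one. With 1 and 2 members, no share was set beside these classes. Bidirectional RNAs start near a promoter and run away from its gene.

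**Figure D1:**
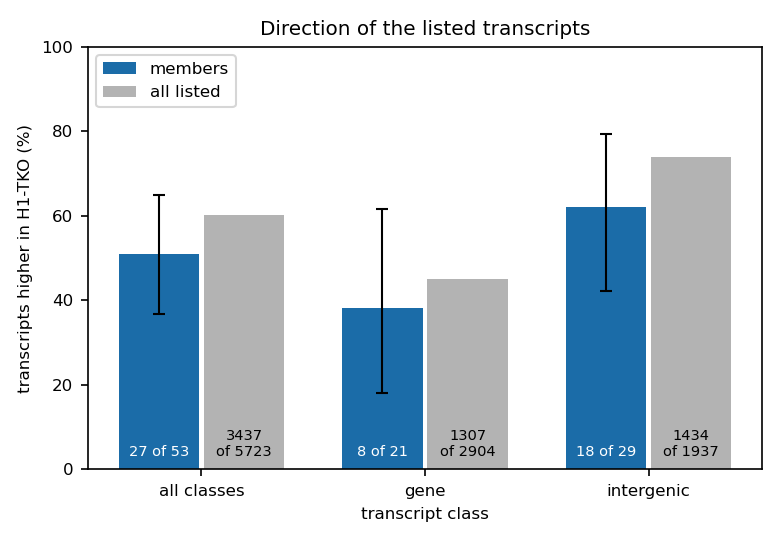
Share of listed transcripts that were higher in H1-TKO (%, y axis), for the members (blue) and for all listed transcripts (grey), over all classes and for the gene and intergenic classes; error bars are exact 95% binomial intervals over the members' transcripts. The members stood at 50.9%, 38.1% and 62.1% beside 60.1%, 45.0% and 74.0%, and each interval holds the value of the whole table.

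Changes among the members were somewhat smaller than in the table as a whole. Their median absolute log2 was 1.65 in the authors' deposited table, beside 2.03 for all listed transcripts. An absolute log2 of at least 2 was given for 21 of 53 members, of which 12 were higher and 9 lower, and for 2905 of all 5723. At least 4 was reached by 5 members, namely the Foxd3 RNAs of 8.17 and 7.22 and the Pax7 RNA of 4.66 on the higher side, and Nkx6-3 at -5.46 and Pou4f2 at -4.48 on the lower side, all in the authors' deposited table. Of these 5, the higher ones were intergenic and the lower ones were the genes' own transcripts. Among all listed transcripts with an absolute log2 of at least 2, 1007 of 2016 higher ones were intergenic. Of the 889 lower ones, 560 were of the gene class. The share of the whole table at an absolute log2 of at least 4 was not counted, so the 5 are a description only. The median of the signed values was 1.03, but no listed value lies between -1 and 1, so this median moves across the gap when few transcripts are left out.

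**Figure D2:**
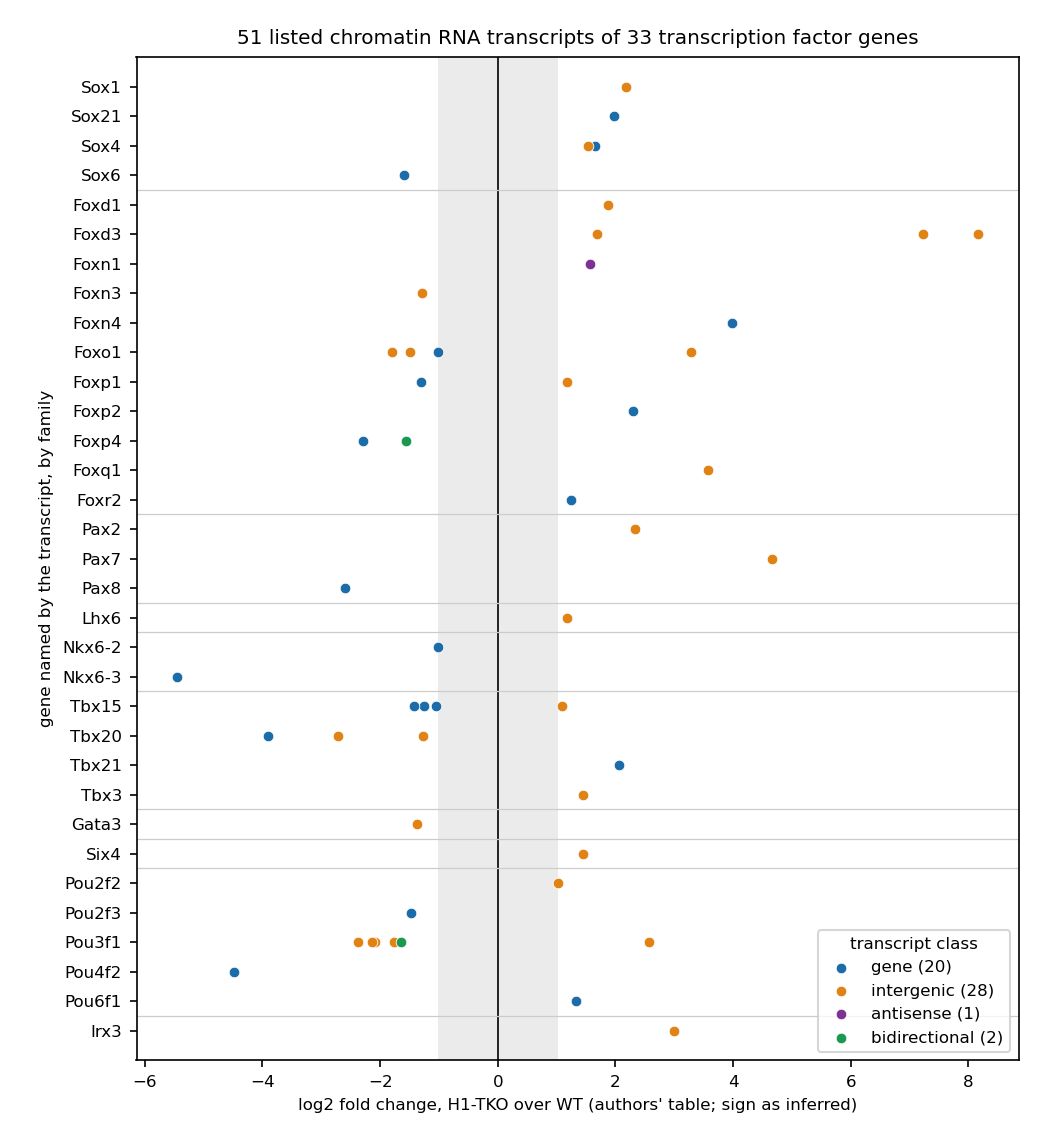
Log2 fold change of H1-TKO over WT from the authors' deposited table (x axis, sign as inferred) for 51 of the 53 member transcripts, each a point in the row of the gene it is named for (y axis, grouped by family) and coloured by class; the grey band from -1 to 1 holds no listed transcript. Foxd3 RNAs stand highest at 8.17 and 7.22, and Nkx6-3 lowest at -5.46, and Pou3f1, Foxo1, Foxp1 and Tbx15 have transcripts on both sides.

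By gene, the families were named in the table at a rate near that of coding genes in general. Of their 181 annotated protein-coding genes (without those left out), 35 or 19.3% gave their name to a listed transcript, with an exact 95% interval from 13.9% to 25.9%, beside 15.4% of all 21924 protein-coding genes. The 181 were counted by name and include 3 Gatad genes that share only the letters of Gata. Without them the share was 19.7% of 178. The gene's own transcript was listed as higher for 8 of the 181 (4.42%; 4.14% of all protein-coding genes) and as lower for 11 (6.08%; 4.8% of all protein-coding genes). RNAs of other classes were higher for 17 (9.39%; 6.9% of all protein-coding genes) and lower for 7 (3.87%; 2.24% of all protein-coding genes). For 16 member genes only such RNAs were listed. Fox gave 18 of the 53 transcripts, Pou 10, Tbx 9, Sox 5, and Nkx and Pax 3 each. Hox, Lhx, Gata, Irx and the sine oculis genes gave 1 each, and none of these 5 families had a listed gene transcript.

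Among Sox genes, whose HMG-box proteins act from early neural fate to cartilage, 4 transcripts were higher and 1 lower. Sox21, which acts in neural progenitors, was higher over its whole length (log2 1.98, or 3.94-fold) in the authors' deposited table. Sox4, a widely used factor of embryonic progenitors, was higher at 1.65 there. A 406.7 kb RNA downstream of Sox4 on the same strand, over the annotated non-coding gene 2610307P16Rik, stood at 1.54 in the authors' deposited table. So the gene and its long neighbour moved in the same direction, with 63.1 kb between them. An intergenic RNA 72.5 kb past Sox1, a marker of early neuroectoderm, stood at 2.18 in the authors' deposited table, while Sox1 itself was not listed. Sox6, which acts in cartilage and red blood cells, was the lower one, at -1.59 in the authors' deposited table over a piece that covers 3.46% of the gene.

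Fox genes gave both the strongest values and the most mixed loci. The 2 Foxd3 RNAs printed above lie on the strand of the gene, end 66.2 and 58.4 kb before its start, and span 20.5 and 3.8 kb. Their folds in the authors' deposited table were 288 and 149, and they rank 10 and 25 from the top of all 5723 transcripts. The longer starts beside the annotated start of the long non-coding gene Gm12690, which is 3.5 kb long. A 69.0 kb RNA on the opposite strand spans them both and stood at 1.69 in the authors' deposited table. All 3 RNAs upstream of Foxd3 were thus higher, and no transcript of Foxd3 itself was listed.

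Foxn4, a factor of retinal progenitors and spinal interneurons, was the highest gene transcript of all families. It stood at 3.98 (15.8-fold) in the authors' deposited table and covered the whole gene at chr5:114252084-114273969. Foxp2, known for its part in vocal learning and striatal neurons, stood at 2.29 in the authors' deposited table, but over a 12.3 kb piece near the 5′ end that holds no exon of the gene. Foxr2, an X-linked forkhead gene, stood at 1.25 there over 98.4% of its length. An antisense RNA within Foxn1, the thymic epithelial factor mutated in nude mice, stood at 1.57 in the authors' deposited table. RNAs named for Foxq1, a factor of hair development, and Foxd1, a factor of the kidney stroma, stood at 3.58 and 1.88 in the authors' deposited table. They lie 263 and 130.2 kb from those genes. The Foxd1 RNA lies over another coding gene, Gm10320, while Foxq1 and the overlapping A530084C06Rik are equally near to the Foxq1 RNA.

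Foxp4, a lung and gut forkhead factor, was lower over its whole length at -2.29 (4.89-fold), and the bidirectional RNA that leaves its promoter was lower at -1.56, both in the authors' deposited table. Foxn3, a forkhead repressor, was represented by a 109.2 kb RNA of the intergenic class at -1.29 in the authors' deposited table; it overlaps the 5′ part of the gene on the same strand. Foxp1, which acts in heart, lung and lymphocytes, had values of both signs in the authors' deposited table, 1.17 at its 5′ end and -1.30 over 113.8 kb at its 3′ end. Foxo1, a forkhead factor switched off by insulin signalling, was lower by its own transcript at -1.01, and 2 downstream RNAs on the same strand were lower at -1.50 and -1.80 in the authors' deposited table. An RNA on the opposite strand upstream, over the pseudogene Olfr1398-ps1, was higher at 3.29 in the authors' deposited table. The Foxo1 locus thus held lower RNAs along the gene's strand and a higher RNA on the other.

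**Figure D3:**
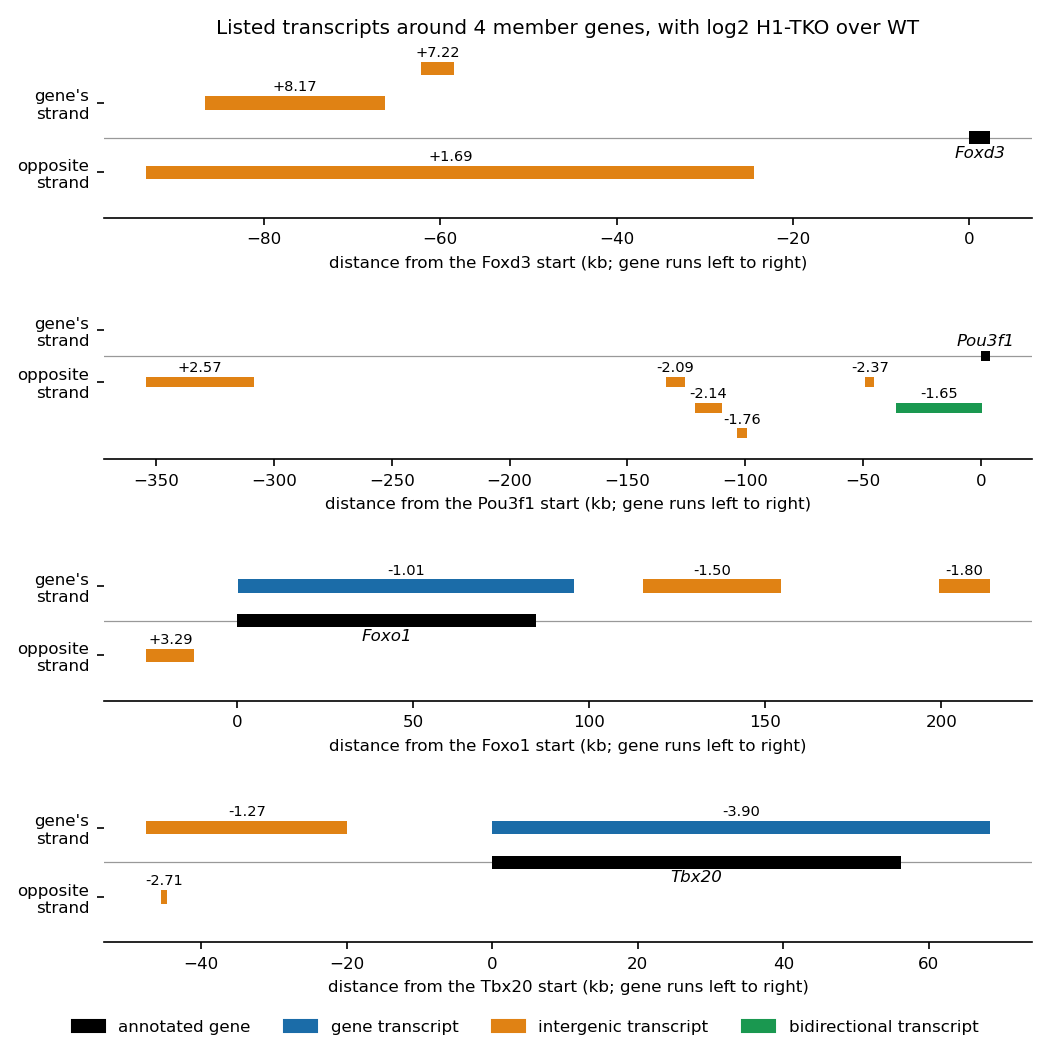
Listed transcripts around Foxd3, Pou3f1, Foxo1 and Tbx20, drawn to scale by distance from the gene's start in kb (x axis, gene running left to right), above the line on the gene's strand and below it on the opposite strand, with vertical offsets only to separate bars and the log2 value of the authors' deposited table over each bar. All Foxd3 RNAs are higher and all Tbx20 RNAs lower, and Pou3f1 and Foxo1 each have 1 higher upstream RNA, at 2.57 and 3.29, beside lower ones.

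Pou genes had 3 higher and 7 lower transcripts, but 5 of the lower ones share a locus. Pou4f2, which specifies retinal ganglion cells, stood at -4.48 (22.3-fold lower) in the authors' deposited table and ranks 65 from the bottom of it. Pou2f3, the factor of tuft cells, stood at -1.48 over 81.5% of the gene in the authors' deposited table. Pou6f1, a neural POU factor, was the higher gene transcript at 1.33 in the authors' deposited table. An RNA of the intergenic class that lies within Pou2f2, a B-cell factor, stood at 1.03 there. Around Pou3f1, a factor of the epiblast and Schwann cells, 5 RNAs on the opposite strand were lower, with values from -2.37 to -1.65 in the authors' deposited table. All 5 overlie the 128.2 kb antisense gene Gm2164, so they may be pieces of 1 RNA and are not separate evidence. Another RNA, 308.7 kb upstream, stood at 2.57 in the authors' deposited table and is nearer to the coding gene 3100002H09Rik. The lower RNAs of the intergenic class are nearer to 3100002H09Rik as well, and the one at -2.37 overlaps it on the same strand. Pou3f1 itself was not listed, so its antisense RNA was lower without a listed change of the gene.

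Among Tbx genes, Tbx20 gave the largest and most uniform difference. Tbx20, needed for the heart, stood at -3.90 (15-fold lower) over its whole length in the authors' deposited table. RNAs upstream of it, 1 on each strand, stood at -1.27 and -2.71 in the authors' deposited table, and these 2 overlap in position. All 3 Tbx20 RNAs were thus lower. Tbx15, which shapes skeleton and skin, was listed in 3 pieces at -1.05, -1.25 and -1.43 in the authors' deposited table, which cover 12.5%, 10.6% and 6.82% of the gene. The 785 bp RNA 146.3 kb downstream, at 1.09 in the authors' deposited table, overlies the pseudogene M6pr-ps. Tbx21, the factor of type 1 helper T cells, was higher at 2.06 in the authors' deposited table over 26.8% of the gene. At Tbx3, a limb factor also made by stem cells, only the neighbouring long non-coding RNA Tbx3os2 was listed, at 1.44 in the authors' deposited table.

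The Nkx genes showed the lowest member of all. Nkx6-3, a factor of the stomach, stood at -5.46 (43.9-fold lower) in the authors' deposited table and ranks 19 from its bottom; the transcript, chr8:23153244-23171202, covers the gene and runs on past its end. Nkx6-2, a factor of neural progenitors and oligodendrocytes, stood near the limit of the authors' deposited table at -1.02. Both of these Nkx6 genes were thus lower.

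Pax8, which specifies thyroid and kidney, stood at -2.59 in the authors' deposited table, over a 3.0 kb piece at its 5′ end that is 5.5% of the gene. RNAs past Pax7, the factor of muscle stem cells, and Pax2, a kidney and ear factor, stood at 4.66 and 2.34 in the authors' deposited table. They lie 10.7 and 5.1 kb downstream of these genes on the opposite strand to Pax7 and the same strand as Pax2, and overlap no annotated gene. Neither Pax7 nor Pax2 itself was listed.

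The Hox genes, 39 in number and held in 4 clusters that pattern the body axis, were nearly absent from the table. No listed transcript overlaps the Hoxa, Hoxb, Hoxc or Hoxd cluster, which span 105.3, 173.9, 115.8 and 96.8 kb. Beside the Hoxa cluster, Evx1, a homeobox gene outside the 11 families, stood at -4.68 (25.6-fold lower) in the authors' deposited table. An unlisted cluster is not shown to be unchanged.

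Further families had 1 intergenic RNA each. In the authors' deposited table the Irx3 RNA stood at 2.99, 202.7 kb upstream of that neural patterning gene and over the long non-coding gene Gm36843. The Six4 RNA, 9.9 kb past that muscle and kidney factor, stood at 1.45 in the authors' deposited table. At Lhx6, which specifies cortical interneurons, the authors' deposited table gives 1.17 for an RNA that overlaps 40.2% of the gene on its strand. The RNA named for Gata3, a factor of helper T cells and trophoblast, stood at -1.37 in the authors' deposited table, but it is 0.4 kb long and lies 814.5 kb away over a pseudogene.

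Intergenic members had no common place beside their genes. Their gap to the named gene had a median of 45.3 kb and ran from 0 to 814.5 kb, with 7 of 29 within 10 kb and 9 beyond 100 kb. For 23 the named gene was the nearest coding gene, and 9 overlapped no annotated gene on either strand. Upstream RNAs were higher in 7 of 13 cases and downstream RNAs in 8 of 12. RNAs on the gene's strand were higher in 8 of 13 cases and those on the other strand in 10 of 16, so neither side nor strand separated the directions.

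When several transcripts carried the same gene's name, they were as often of mixed as of equal direction. Of 8 such genes, Foxd3 and Sox4 had higher transcripts alone, Foxp4 and Tbx20 lower ones alone, and Foxo1, Foxp1, Pou3f1 and Tbx15 both. Genes with a gene transcript and another class numbered 6, and in 3 of them all went the same way. Neither share was counted over all genes of the table, so neither can be called particular to the members. Within 250 kb, 19 members had listed neighbours of other names, and 69.0% of these 42 neighbours had the member's direction, beside 78.4% over all listed transcripts. The other 34 members (64.2%) had none, beside 39.8% of all listed transcripts. Counting neighbours of the same name too, 13 members (24.5%) had none, beside 12.7% of all listed transcripts.

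In G and C content the members' transcripts were close to the whole table, but gene members held more CpG. Their median was 19.1 CpG per kb, beside 11.7 for all listed gene transcripts. Intergenic members had 10.9 beside 10.3. Gene members had a median of 47.3% G and C beside 45.4% for all listed gene transcripts, and intergenic members 45.4% beside 44.5%. The motif GGACT, a common context of m6A, the RNA methylation named in the series title, occurred at a median of 0.848 per kb in gene members and 0.894 in all listed gene transcripts. In intergenic members it was 0.943 per kb beside 0.873. It was searched on the transcript's strand only. Promoters of the 26 member genes found in the RefSeq table were richer, with a median of 61.5% G and C and 15.5 CpG per 300 bases, beside 52.7% and 7 for all promoters. Genes without an entry there include Foxp2, Foxq1, Nkx6-3, Pou2f3, Pou3f1, Tbx15 and Tbx3.

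R-loop peaks were set beside the members next. The libraries differed much in the number of peaks, with 25392 and 6458 in the H1-TKO replicates and 22336 and 6612 in WT, before removal of those that met a control peak. A peak in both replicates is therefore limited by the short lists. A promoter was any annotated start of the gene with 1 kb on both sides, and the fold enrichment of each peak is the authors' own value.

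RNH peaks met the promoters of 21 and 6 of the 35 member genes in the H1-TKO replicates and of 17 and 5 in WT. These are 60.0% and 17.1% in H1-TKO and 48.6% and 14.3% in WT. Over all protein-coding genes the shares were 50.1% and 14.5% in H1-TKO and 45.0% and 11.4% in WT. In both H1-TKO replicates there were 4 (11.4%), namely Foxn3, Foxp1, Foxp4 and Six4, beside 13.3% of all protein-coding genes. In both WT replicates there were also 4 (11.4%), Foxn3, Foxn4, Foxp4 and Pou4f2, beside 10.7% of all. These shares are near their backgrounds. No control peak met a member promoter, and 9 member genes (25.7%, beside 43.7% of all protein-coding genes) had no promoter peak in any library, among them Foxd3, Nkx6-3, Pax7 and Sox4.

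Foxn3 and Foxp4, both with lower RNA, were met in all 4 libraries. Foxn3 peaks had fold enrichments of 4.51 and 4.84 in H1-TKO and of 4.29 and 4.19 in WT, and those of Foxp4 were 3.13 and 4.15 in H1-TKO and 3.17 and 4.17 in WT. Each value is the highest at any start of the gene and the places differ, so the genotypes cannot be ranked by them. At Foxp4 the peak of H1-TKO replicate 1 lay at chr17:47924066-47924692 and that of replicate 2 at chr17:47887574-47887980. In neither gene did a single place hold peaks of all 4 libraries, and at Foxp1 the peaks of the H1-TKO replicates met different starts. Six4 was the 1 gene with peaks in both H1-TKO replicates and in neither WT replicate, at 3.20 and 4.74. At the RNA downstream of Six4 it was the reverse, with peaks in both WT replicates, at 4.42 and 3.78, and in neither H1-TKO replicate. Foxn4, whose RNA was higher in the authors' deposited table, had peaks of 3.13 and 3.22 in WT and of 2.75 in H1-TKO replicate 1 alone. Pou4f2, whose RNA was lower, had 2.59 and 4.08 in WT and 3.49 in H1-TKO replicate 1.

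**Figure D4:**
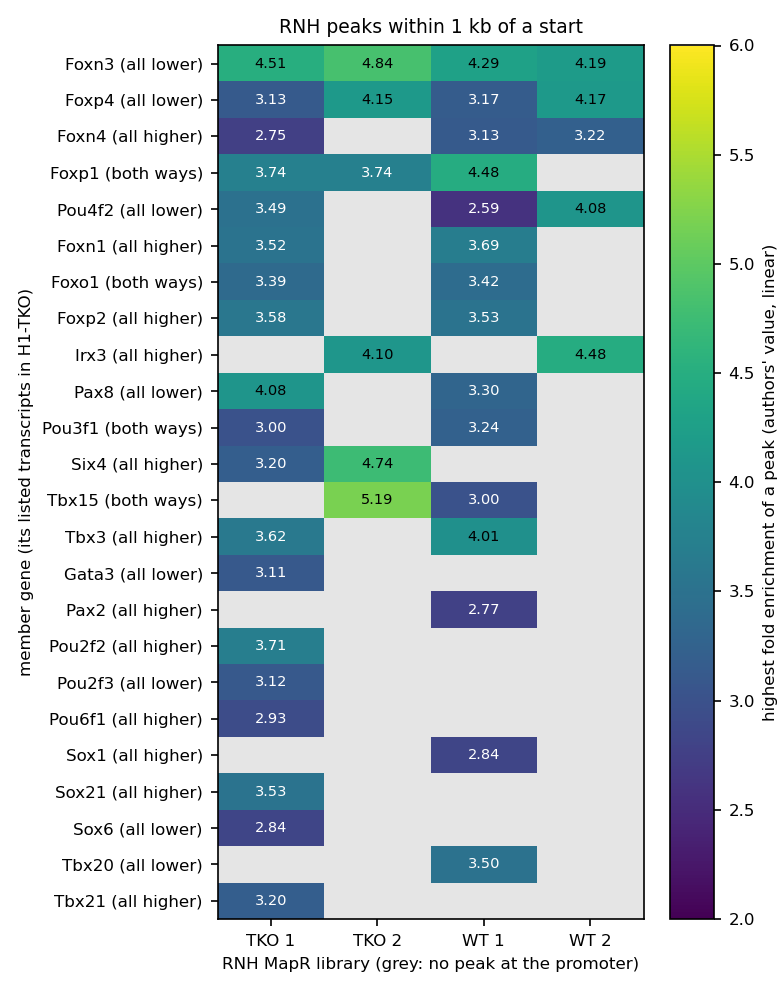
Highest fold enrichment (colour and printed value, linear, as the authors' peak lists give it) of an RNH peak within 1 kb of an annotated start of each member gene shown that has any such peak (rows, with the direction of its listed transcripts), in the 4 RNH libraries (columns); grey cells have no peak. Replicate 1 of each genotype fills most cells, Foxn3 and Foxp4 are met in all 4 libraries, and Six4 in both H1-TKO libraries and neither WT library.

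Split by the direction of the RNA, promoter peaks in both replicates were few. Of 20 genes whose transcripts were all higher, 1 had a peak in both H1-TKO replicates and 1 in both WT replicates. Of 11 genes with lower transcripts alone, these numbers were 2 (18.2%) and 3 (27.3%). Over all protein-coding genes the shares were 13.3% and 10.7%, and counts this small do not separate the directions. Among the 146 genes of the families that the table does not name, 9 (6.16%) were met in both H1-TKO replicates and 12 (8.22%) in both WT replicates. Both counts include Gatad2a and Gatad2b, which share only the letters of the Gata name.

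Within the listed transcripts themselves, peaks of both H1-TKO replicates met 4 of 53 members (7.55%), beside 8.14% of all listed transcripts, and peaks of both WT replicates met 5 (9.43%), beside 7.74%. The H1-TKO ones were the gene transcripts of Foxp4 and Pou2f3, the RNA within Pou2f2, and the Foxo1 downstream RNA of log2 -1.50 in the authors' deposited table. In Foxp4 the peaks of the H1-TKO replicates lay at the separate places given above. In WT they were Foxp4, Foxn4, the Six4 RNA and 2 Foxo1 RNAs, upstream and downstream. The Foxo1 downstream RNA held a peak of every library between chr3:52413310 and chr3:52413918, with fold enrichments of 3.79 and 4.00 in H1-TKO and of 3.83 and 3.63 in WT. There the genotypes overlapped. No peak of any library met 24 members (45.3%, beside 54.7% of all listed transcripts), the 2 highest among them.

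Other developmental transcription factors, a list of 104 genes outside the 11 families, moved in both directions as well. Their own transcripts were higher for 8 genes (7.69%), with Zic2 at 4.62, Zic5 at 3.75 and Gsc at 3.03 in the authors' deposited table, and lower for 11 (10.6%), beside 4.14% and 4.8% of all protein-coding genes. RNAs of other classes were higher for 16 of these 104 genes and lower for 7, beside 6.9% and 2.24% of all protein-coding genes. Lower examples were Evx1, given above, Meox1 at -2.28 and Gbx2 at -1.91 in the authors' deposited table. Zic2 and Zic5 are neighbouring neural genes, Gsc marks the organizer, Meox1 acts in somites and Gbx2 in the hindbrain and in stem cells. Of 32 Polycomb group genes none had a higher gene transcript and 4 (12.5%) a lower one, beside 4.14% and 4.8% of all protein-coding genes. RNAs of other classes were higher for 9 of the 32 and lower for 2, beside 6.9% and 2.24% of all protein-coding genes. Among the higher ones were an antisense RNA within Mtf2 at 5.42 and an intergenic RNA at Eed at 4.13 in the authors' deposited table. The genes with lower transcripts were Bmi1 at -1.40, Kdm2b at -1.19, Rnf2 at -1.07 and Jarid2 at -1.06, all small values in the authors' deposited table.

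Markers of cell type were listed in both directions too. Of 14 pluripotency markers, the gene transcript was higher for Dppa3 (3.01) and lower for Klf5 (-2.23) in the authors' deposited table, and the other 12 had no listed gene transcript. Of 12 neuroectoderm markers 3 were higher, Tubb3, Otx2 and Ncam1, and 1 lower, Olig2; of 15 endoderm markers 2 were higher and 3 lower; of 13 mesoderm markers 1 was higher and 1 lower; and of 12 fibroblast markers 1 was higher, Vim. As background, all-gene shares of 4.14% and 4.8% apply to these gene transcripts as well. RNAs of other classes were higher for 4 pluripotency markers and lower for 1, and higher for 3 mesoderm markers and lower for 1. They were higher for 3 endoderm and 3 neuroectoderm markers and lower for 0, and 0 fibroblast markers had any. Over all protein-coding genes these shares were 6.9% higher and 2.24% lower. The RNAs at Tbx3 and Sox1 counted here are themselves members. The table gives no levels, so the labelled cell type could not be checked by them, and the part of other cell types in the members' values was not tested.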

How the data were processed

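Values came from the authors' deposited table over 6 cheRNA samples (3 per genotype) and from peak lists of 6 MapR libraries. The submitters' processing notes name the build mm10 and, among tools, MACS2, bedtools, DESeq2, TopHat2, SAMtools and BWA, with no version or role. The deposited cheRNA values are log2 fold changes by the authors, multiplied here by -1. A luciferase RNA was spiked in per the labels' protocols; whether it served for scaling is not given in the sources used here. Peak lists, deposited by the authors per library, hold fold enrichment (a ratio), -log10 p and -log10 q, and a score. No reads were counted here, so depth is unknown, and intervals cover the number of transcripts only.

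Deposited starts count from 0: adding 1 matched 69 annotated gene starts, against 7 without. Names were matched to GENCODE M21, and overlaps of at least 1 bp were counted with Python 3.11.15, pandas 2.3.3 and pysam 0.24.0, after a check on planted overlaps. RNH peaks that met a control peak of either genotype were removed. The members and lists were chosen with earlier results of these data known. Named are the 10 highest and lowest member transcripts, genes with 3 or more, gene transcripts, and genes with peaks in 1 genotype or all 4 libraries; most remaining members were named after their values were seen, and 2 members counted in the totals are not reported here. Alternatives changed the threshold, the unit of counting, the peak and promoter rules and the libraries.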

Additional observations from a re-analysis of the deposited data

How the results depend on the processing

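The members' shares of higher transcripts stayed within their own wide intervals under every alternative tried. Their place below the whole table was less stable. Over all members the share was 57.1% at an absolute log2 of at least 2, 64.5% with 1 vote per gene (31 genes, without the 4 of mixed direction), 49% without chromosome 11 and 61.5% without Pou3f1, Foxo1 and Tbx15, the last chosen after seeing the data. The 57.1% stands below 69.4% of all listed transcripts of that size, but 64.5% and 61.5% stand above the 60.1% of the whole table. With 1 vote per gene the intergenic share was 77.8% and the gene-class share 42.1%, beside class shares of 74.0% and 45.0%. Without Pou3f1, Foxo1 and Tbx15 these shares were 75% and 47.1%. The whole table was not recounted by vote or without those genes. The median log2 of 1.03 turned to -1.01 without chromosome 11, which holds 2 members; it crosses the gap where no value is listed. With peaks of -log10 q of at least 5, promoters met in both replicates fell to 1 gene in H1-TKO and 1 in WT, and transcripts to 0 and 1. With at least 50% of a peak required inside the transcript, 3 transcripts were met in both WT replicates. The Six4 RNA and the Foxn4 transcript were then no longer among them. Leaving out a replicate gave 6 to 21 genes and 5 to 21 transcripts in H1-TKO, and 5 to 17 genes and 7 to 18 transcripts in WT, by the construction of a count that then needs 1 library. No paired analysis was possible because the table holds no value per sample and no result comes from a test. Depth is unknown for all libraries.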

Other observations

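Promoter peaks in both replicates of a genotype were also found at family genes that the cheRNA table does not name. Pou2f1, a POU factor of most tissues, was met in all 4 libraries, with fold enrichments of 4.38 and 6.12 in H1-TKO and of 4.43 and 4.51 in WT. Hoxc13, a factor of hair and nails, was met in all 4 as well, at 3.65 and 7.40 in H1-TKO and at 3.32 and 4.65 in WT. Gatad2a and Gatad2b, subunits of the NuRD complex whose names share the Gata letters, had peaks from 3.77 to 5.70 in all 4 libraries. Irx1 and Foxh1, the latter a partner of Nodal signalling, were met in both WT libraries, at 2.82 and 4.73 and at 2.92 and 3.63, and in neither H1-TKO library. These genes were named after their values were seen.

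Listed transcripts with other names overlay 2 family genes on the same strand. The authors' deposited table gives -1.43 for an Rnf157 transcript that runs over Foxj1, the factor of motile cilia, and 1.14 for a Dedd2 RNA over part of Pou2f2.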
